A study of Mus musculus with 2 samples.

Results

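Among the dermal fibroblasts of mouse back skin, 811 cells carried more transcripts of *Cpz*, *Pla2g5*, *Fgfr4* and *Clec11a* than of the genes that mark 3 other fibroblast groups, and a median of over 20% of their transcripts came from *Col1a1*, *Col1a2*, *Col3a1* and *Dcn*. They are called *Cpz* fibroblasts here. They were chosen by counts of unique molecular identifiers (UMIs, each a tagged probe molecule). A cell needed 200 to 45000 UMIs from 100 to 7500 genes, with mitochondrial UMIs no higher than 10%, and at least 2% of its UMIs had to come from *Col1a1*, *Col1a2*, *Col3a1* and *Dcn* together. Among these cells, called fibroblasts here, the UMIs of *Cpz*, *Pla2g5*, *Fgfr4* and *Clec11a* had to sum to at least 3 and to exceed each of 3 other sums. These were *Pla1a*, *Efhd1*, *Ptx3* and *Anxa3* (the *Pla1a* group), *Tnmd*, *Masp1*, *Slit2* and *C1qtnf3* (the *Tnmd* group), and *Angpt4*, *Myoc*, *C7* and *Adamtsl2* (the *Angpt4* group). The *Cpz* fibroblasts were 811 of 4270 fibroblasts, of 17492 cells within the filter and of 17990 cells in all.

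The cells came from 6 mm punches of untreated dorsal skin of 1 wildtype C57BL/6J mouse and 1 *Eppk1*-/- mouse, whose strain had been backcrossed into C57BL/6J and which is called the knockout below. *Eppk1* encodes epiplakin, a plakin protein that binds keratin filaments in epithelial cells. The tissue was dissociated with enzymes, fixed and measured with probes for the whole transcriptome, and the cells of both mice were pooled with probe barcodes before droplets were formed. Each genotype had 1 library, so no test between genotypes could be made, and how far such mice differ among themselves is unknown. The wildtype library held 9179 cells with 77638793 UMIs (median 5078 per cell), and the knockout library 8811 cells with 65118304 UMIs (median 5093). Ranges given in brackets after a value are exact 95% intervals (Poisson for levels, conditional binomial for ratios, Clopper-Pearson for shares) unless another range is named, and they cover counting error only. Levels are in CPM, the UMIs of a gene per 1000000 UMIs summed over a group of cells, without the 13 mitochondrial genes. Ratios are on the log2 scale, knockout over wildtype unless another pair is named, with 0.5 UMI added. Since genes differ in how well their probes bind, a CPM is compared between groups of cells for the same gene and not between genes.

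Dermal fibroblasts make the collagen, proteoglycan and elastic matrix of the skin. Type I collagen, a trimer of the *Col1a1* and *Col1a2* chains, and type III collagen, made of *Col3a1* chains, form the fibrils of the dermis, and decorin (*Dcn*) coats them. Collagen chains are hydroxylated and folded in the endoplasmic reticulum, exported, trimmed by proteinases and cross-linked by lysyl oxidases. Fibroblasts differ by depth in the dermis, with papillary cells below the epidermis and reticular cells beneath them, and they exchange Wnt, FGF, TGF-beta and BMP signals with the epidermis and hair follicles.

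The genes that define the group have different roles. *Cpz* encodes carboxypeptidase Z, a secreted enzyme with a Frizzled-like domain that binds Wnt proteins. Its gene spans 35502218 to 35525698 of chromosome 5 (GRCm38, which is mm10), minus strand. *Pla2g5* (chromosome 4, 138799244 to 138863482, minus strand) encodes a secreted phospholipase A2, which releases fatty acids from phospholipids. *Fgfr4* (chromosome 13, 55152640 to 55168759, plus strand) encodes a receptor for fibroblast growth factors. *Clec11a* (chromosome 7, 44302687 to 44306902, minus strand) encodes a secreted lectin known for promoting bone formation. The promoter windows of these genes are printed because the genes were high in the same cells, and that of *Col1a2* because its product set the group apart by abundance. Each runs from 250 bases before to 50 bases after the RefSeq start on GRCm38.p6, 5′ to 3′ on the gene's strand. The windows are chr5:35525577-35525876 (*Cpz*, minus), chr4:138863420-138863719 (*Pla2g5*, minus), chr13:55152568-55152867 (*Fgfr4*, plus), chr7:44306910-44307209 (*Clec11a*, minus) and chr6:4505368-4505667 (*Col1a2*, plus). Capitals mark CCAAT or its complement ATTGG, the letters of the CCAAT box, and TGACG or its complement CGTCA, part of the site of CREB and ATF factors.
Cpz: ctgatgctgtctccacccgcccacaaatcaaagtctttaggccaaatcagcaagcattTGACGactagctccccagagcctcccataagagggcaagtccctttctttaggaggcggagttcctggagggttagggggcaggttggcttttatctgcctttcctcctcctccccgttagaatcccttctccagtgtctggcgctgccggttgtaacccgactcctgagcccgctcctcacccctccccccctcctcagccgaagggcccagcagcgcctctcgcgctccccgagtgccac
Pla2g5: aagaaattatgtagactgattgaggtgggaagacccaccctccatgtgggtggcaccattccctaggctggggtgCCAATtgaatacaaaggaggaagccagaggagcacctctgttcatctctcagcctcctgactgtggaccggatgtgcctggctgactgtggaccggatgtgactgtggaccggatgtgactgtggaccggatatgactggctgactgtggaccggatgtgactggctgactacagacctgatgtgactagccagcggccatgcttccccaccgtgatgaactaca
Fgfr4: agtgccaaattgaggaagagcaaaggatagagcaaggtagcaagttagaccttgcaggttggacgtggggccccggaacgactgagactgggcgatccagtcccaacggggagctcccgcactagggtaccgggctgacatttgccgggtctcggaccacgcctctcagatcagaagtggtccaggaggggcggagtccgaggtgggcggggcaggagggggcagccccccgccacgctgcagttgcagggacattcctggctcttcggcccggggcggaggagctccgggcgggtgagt
Clec11a: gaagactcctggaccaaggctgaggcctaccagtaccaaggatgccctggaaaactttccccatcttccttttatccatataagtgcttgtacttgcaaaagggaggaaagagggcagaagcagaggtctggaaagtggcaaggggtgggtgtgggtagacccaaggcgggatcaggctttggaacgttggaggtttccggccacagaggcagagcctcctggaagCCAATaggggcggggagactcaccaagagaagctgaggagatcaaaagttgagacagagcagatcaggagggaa
Col1a2: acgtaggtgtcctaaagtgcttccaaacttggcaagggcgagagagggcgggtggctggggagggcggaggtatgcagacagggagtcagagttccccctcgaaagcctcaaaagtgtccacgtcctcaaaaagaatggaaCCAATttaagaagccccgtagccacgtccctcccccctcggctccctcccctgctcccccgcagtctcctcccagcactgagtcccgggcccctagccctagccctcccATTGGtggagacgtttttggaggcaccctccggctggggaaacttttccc

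CCAAT occurred 1 time in the windows of *Pla2g5* and *Clec11a*, and the *Col1a2* window held CCAAT 1 time and ATTGG 1 time. Over 32851 RefSeq windows of this length, 37.4% held CCAAT or ATTGG. The *Cpz* window held TGACG 1 time, against 20.8% of all windows with TGACG or CGTCA. None of the 5 windows held TATAAA or its complement TTTATA, which 13.6% of all windows did. The GC content of the windows was 60.3% for *Cpz*, 55.3% for *Pla2g5*, 65.3% for *Fgfr4*, 54.0% for *Clec11a* and 61.0% for *Col1a2*, against a median of 52.7% over all windows. For *Pla2g5*, RefSeq lists 2 windows, of which 1 is shown. These matches describe letters in the windows and not binding.

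*Cpz* fibroblasts were 354 of 1623 wildtype fibroblasts (21.8%, 19.8 to 23.9) and 457 of 2647 knockout fibroblasts (17.3%, 15.8 to 18.8). As a share of all cells within the filter the order was the other way, at 3.99% in the wildtype (3.59 to 4.42) and 5.30% in knockout cells (4.84 to 5.80). Fibroblasts as a whole took 18.3% of wildtype cells (17.5 to 19.1) and 30.7% of knockout cells (29.8 to 31.7). The share among fibroblasts moved with the collagen threshold. With at least 5% collagen and decorin UMIs required of a fibroblast, it was 33.9% in wildtype and 35.7% in knockout cells, so that the order of the libraries turned. The *Pla1a* group held 633 and 1176 cells, the *Tnmd* group 254 and 449, and the *Angpt4* group 144 and 328, while 238 and 237 fibroblasts fell in no group.

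The *Cpz* fibroblasts of the wildtype summed to 2425057 UMIs, with a median of 6451 UMIs and 2338 genes per cell, and those of the knockout to 2905455 UMIs, with medians of 5979 and 2130. Mitochondrial UMIs made up a median of 0.199% and 0.203%. The sum of the 4 defining genes had a median of 9 in the wildtype (lowest 3, highest 40) and of 12 in knockout cells (lowest 3, highest 49). At the edge of the rule, 22 and 20 members had a sum of exactly 3, with median depths of 3124 and 3048.5 UMIs, and 18 and 12 fibroblasts just outside had a sum of 2, with 1888.5 and 2199 UMIs. A further 21 and 36 fibroblasts were left out because another sum equalled theirs, and 244 and 317 because another sum was higher. In 143 and 234 of the latter, the *Tnmd* sum was above theirs. Many members carried UMIs of a second sum as well. A *Tnmd* sum of at least 3 was found in 29.1% of wildtype and 44.9% of knockout members, a *Pla1a* sum of at least 3 in 34.7% and 18.4%, and an *Angpt4* sum of at least 3 in 0 and 7 members. Only 117 wildtype and 124 knockout members had at most 1 UMI in each of the other 3 sums. Overlap by these sums was thus common with the *Tnmd* and *Pla1a* groups and rare with the *Angpt4* group. A single gene led each of the common sums. *Anxa3* had 705 wildtype and 508 knockout UMIs in members, against at most 70 and 88 for each of *Pla1a*, *Efhd1* and *Ptx3*. It stood at 291 and 175 CPM in members, beside 231 and 155 CPM outside the fibroblasts. *C1qtnf3* had 377 and 1058 UMIs, against at most 163 and 198 for each of *Tnmd*, *Masp1* and *Slit2*.

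*Cpz* gave the most UMIs of the 4 genes, with 50.1% of their sum in wildtype and 53.3% in knockout cells, and it led in 223 of 354 and 325 of 457 members. *Clec11a* gave 26.4% and 34.3%, *Pla2g5* 14.9% and 5.92%, and *Fgfr4* 8.61% and 6.44%. UMIs of all 4 genes were found in 115 wildtype and 108 knockout members, of 3 in 144 and 195, of 2 in 76 and 128, and of 1 in 19 and 26. Most members thus held UMIs of several of the 4 genes, and few of 1 alone. These genes chose the cells, so the counts describe the members and support nothing further.

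To compare shares of cells with a UMI at equal depth, each cell was thinned to 3000 UMIs, which left 320 wildtype and 407 knockout members and dropped 34 and 50 shallower ones. *Cpz* was then detected in 85.6% and 89.2% of members (95.5% and 94.97% without thinning), and in 0.0552% and 0.125% of keratinocytes thinned in the same way. These keratinocytes, a type that should lack the defining genes, numbered 1811 and 1600 after thinning and had median depths of 5380 and 5234 UMIs before it. They were cells with at least 5% of UMIs from keratinocyte genes and under 0.2% from *Col1a1*, *Col1a2*, *Col3a1* and *Dcn*. Cells with more fibroblast transcripts were thus left out beforehand, and the shares may lie below the background of unselected cells. *Clec11a* was detected in 67.2% and 88.5% of thinned members (85.3% and 95.4% unthinned), against 0.110% and 0.375% of keratinocytes. *Pla2g5* was detected in 45.6% and 29.98% of thinned members (66.9% and 42.5% unthinned), against 9 of 1811 and 8 of 1600 keratinocytes. *Fgfr4* was detected in 36.6% and 34.2% of thinned members (52.5% and 51.4% unthinned) and in 0 of 1811 and 0 of 1600 keratinocytes, where a limit of 3 cells allows shares of up to 0.166% and 0.188%. *Cpz*, *Clec11a*, *Pla2g5* and *Fgfr4* are genes of the rule, so these shares describe the members and test nothing.

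Since the rule used the 4 genes, their levels describe the choice and support nothing further. In the other fibroblast groups *Cpz* stood at 15.5 to 139 CPM in wildtype and 27.4 to 344 CPM in knockout cells, highest in the *Tnmd* group in both. In *Cpz* fibroblasts *Cpz* stood at 784 CPM in the wildtype (749 to 820) and 1141 CPM in knockout cells (1102 to 1180), a log2 ratio of 0.54 (0.46 to 0.62). *Clec11a* was 413 CPM in the wildtype (387 to 439) and 733 CPM in knockout cells (702 to 765), a log2 ratio of 0.83. Both were higher in the knockout cells. *Pla2g5* went the other way, with 234 CPM in the wildtype (215 to 254) and 127 CPM in knockout cells (114 to 140), a log2 ratio of -0.88. Among members with at most 1 UMI in each other sum this ratio was -0.17, and under the other alternatives it stayed between -0.93 and -0.81. *Fgfr4* was nearly level, with 135 CPM (121 to 150) and 138 CPM (125 to 152) and a log2 ratio of 0.03 (-0.18 to 0.25).

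*Eppk1* (chromosome 15, 76101481 to 76120195, minus strand) checks the labels of the libraries. In *Cpz* fibroblasts it was counted 585 times in the wildtype, or 242 CPM (223 to 262), and 130 times in knockout cells, or 44.9 CPM (37.5 to 53.3), a log2 ratio of -2.43 (-2.72 to -2.15). It was lower in knockout cells in the other fibroblast groups too, with log2 ratios of -2.63 in the *Pla1a*, -2.78 in the *Tnmd* and -2.19 in the *Angpt4* group. Most of these UMIs came from few cells. A single cell held 250 of the 585 wildtype UMIs and another 67 of the 130 knockout UMIs. Without the 44 wildtype and 42 knockout members that carried UMIs of other cell types, the levels were 71.3 CPM and 16.4 CPM and the log2 ratio was -2.11. Over all alternatives the ratio ran from -5.15, among members with at most 1 UMI in each other sum, to -1.69 after thinning. After thinning, *Eppk1* was detected in 18.1% of wildtype and 5.90% of knockout members, against 91.7% and 34.6% of keratinocytes. Whether the probes lie in the part of the gene that is altered in the knockout is not given in the sources used here.

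Collagen and decorin transcripts took a larger share of the UMIs of *Cpz* fibroblasts than of the other groups. The UMIs of *Col1a1*, *Col1a2*, *Col3a1* and *Dcn* made up a median of 20.8% of all UMIs per cell in the wildtype (5th to 95th percentile 5.59 to 31.8) and 20.97% in knockout cells (5th to 95th percentile 5.31 to 34.2). In the *Pla1a* group the medians were 4.35% and 3.48%, in the *Tnmd* group 6.89% and 7.59%, and in the *Angpt4* group 3.52% and 3.91%. The median *Cpz* fibroblast thus lay above the 95th percentile of each other group, which was at most 18.1% in wildtype and 19.4% in the knockout. The rule asked for 2%, and 9 wildtype and 12 knockout members lay between 2% and 4%. Summed over all 44 collagen genes, collagen took 18.3% of the UMIs of wildtype and 18.9% of those of knockout *Cpz* fibroblasts, 6.07% and 4.19% in the *Pla1a* group, 7.94% and 8.41% in the *Tnmd* group, and 4.32% and 4.16% in the *Angpt4* group.

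**Figure D1:**
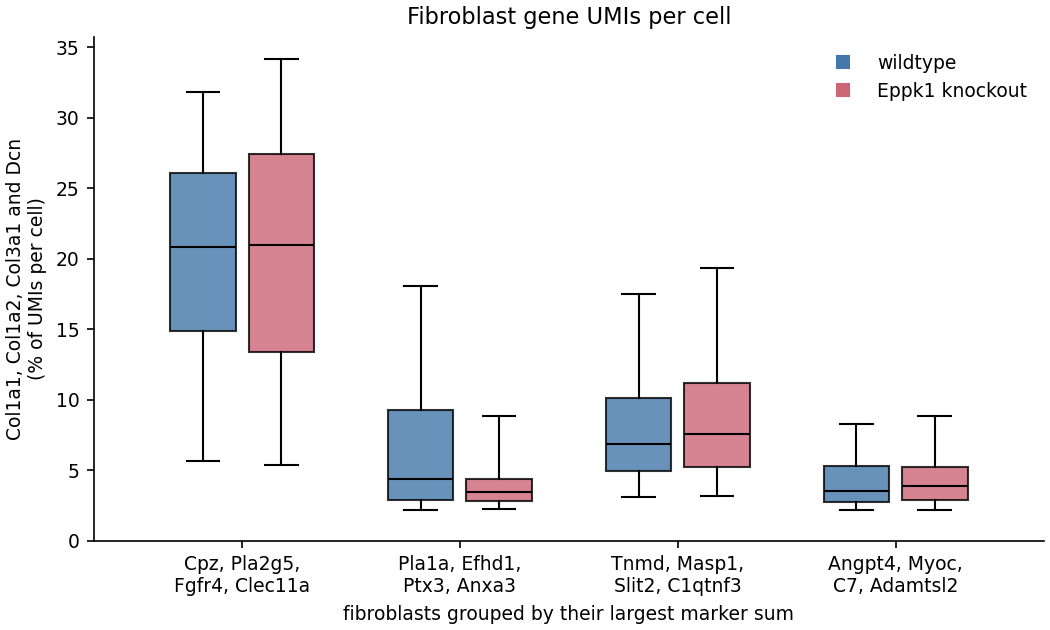
Share of the UMIs of each cell (y axis, percent) that came from *Col1a1*, *Col1a2*, *Col3a1* and *Dcn*, for 4 groups of fibroblasts in the wildtype and the *Eppk1* knockout library. Boxes span the quartiles with the median as a line, and whiskers reach from the 5th to the 95th percentile of cells. The *Cpz* fibroblasts stand at medians of 20.8% and 20.97%, and the other groups at 3.48% to 7.59%.

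*Col1a1* was counted 217019 times in wildtype and 283143 times in knockout *Cpz* fibroblasts, or 89729 CPM and 97727 CPM. In the other groups it stood at 10814 to 30140 CPM in wildtype and at 10552 to 35155 CPM in knockout cells. *Col1a2* stood at 52613 CPM and 51336 CPM, *Col3a1* at 34510 CPM and 32628 CPM, and *Dcn* at 18345 CPM and 21573 CPM. The type I chains exceeded the highest other group by the most, with log2 ratios of 1.57 and 1.48 for *Col1a1* and 1.41 and 1.22 for *Col1a2*, followed by *Col3a1* with 0.88 and 0.95 and *Dcn* with 0.23 and 0.44. The balance of the collagens differed accordingly. For each *Col3a1* UMI, 2.60 *Col1a1* UMIs were counted in wildtype and 2.995 in the knockout *Cpz* fibroblasts, against 1.57 and 1.02 in the *Pla1a*, 1.61 and 2.08 in the *Tnmd* and 1.11 and 1.05 in the *Angpt4* group. For each *Dcn* UMI there were 4.89 and 4.53 *Col1a1* UMIs, against 0.880 to 2.21 in the other groups.

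High collagen did not extend to every matrix gene. Since the cells were grouped by 16 marker genes and a collagen threshold, differences between the groups are given as descriptions. Of 4674 genes detected in no fewer than 25% of the cells of any of the 4 groups in both libraries, 27 (0.578%) exceeded the highest of the other 3 groups by at least 1 on the log2 scale in both libraries, and 96 (2.05%) lay below the lowest by as much. These 27 were the 4 defining genes, 20 listed by size below, and *Kazald1*, *Sema4c* and *Tent5c*. The abundant collagens lower the CPM of all other genes in these cells. The median log2 ratio of *Cpz* fibroblasts over another group was -0.37 to -0.19 over the 6 comparisons, and -0.10 to 0.04 with collagens left out of the total. With that total 34 genes were higher and 72 lower, and among these were all 27 and 72 of the 96.

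*Creb3l1*, *Creb3l3* and *Pycr1* were also among the 20. *Creb3l1*, a membrane-bound transcription factor of the secretory pathway that is known to drive type I collagen genes in bone, stood at 879 CPM in the wildtype (843 to 918) and 1296 CPM in knockout cells (1255 to 1338), against at most 425 and 579 CPM in the other groups. Its relative *Creb3l3* stood at 87.2 CPM and 73.5 CPM, against at most 20.1 and 28.8 CPM. *Pycr1*, an enzyme of proline synthesis, stood at 90.1 CPM and 82.8 CPM, against at most 41.5 and 28.4 CPM. *Col1a1* and *Col1a2* are among the 20 as well.

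Another set of the 20 acts at the cell surface and in signalling. *Sulf2*, a sulfatase that edits heparan sulfate, stood at 754 CPM and 837 CPM, against at most 256 and 274 CPM in the other groups. *Rspo1*, a secreted amplifier of Wnt signals, stood at 75.7 CPM and 92.2 CPM, against at most 28.4 and 32.6 CPM. *Cldn10*, a claudin of tight junctions in epithelia, stood at 293 CPM and 356 CPM, against at most 72.6 and 148 CPM. *Nt5e*, which makes adenosine and is also known as CD73, stood at 85.6 CPM and 73.2 CPM, against at most 24.2 and 26.3 CPM. *Vit*, a secreted matrix protein, stood at 181 CPM and 236 CPM, against at most 66.5 and 68.4 CPM. *Prex1*, an activator of Rac, and *Cd82*, a tetraspanin, complete this set, but *Cd82* was higher outside the fibroblasts, at 279 CPM in both libraries.

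A further set concerns lipids and metabolism. *Pla2g2e*, another secreted phospholipase A2, stood at 167 CPM in wildtype and 86.3 CPM in knockout cells, against at most 28.9 and 16.7 CPM in the other groups. *Slc27a6*, a fatty acid transport protein, stood at 242 CPM and 111 CPM, against at most 40.1 and 26.3 CPM. Like *Pla2g5*, both were lower in knockout cells, with log2 ratios of -0.95 and -1.12. The ratio of *Pla2g2e* was -0.36 among members with at most 1 UMI in each other sum and thus no longer past the size, and that of *Slc27a6* was -0.90 there. *Aldh3a1*, an aldehyde dehydrogenase, stood at 637 CPM and 471 CPM, against at most 228 and 210 CPM. *Ndufa4l2*, a mitochondrial protein known to respond to low oxygen, stood at 541 CPM and 484 CPM, against at most 183 and 123 CPM. *Cgref1*, *Ppp1r14a*, *Evi2a* and *Nod2* were the remaining genes of the 20, with 66.98 to 147 CPM in wildtype and 54.5 to 152 CPM in knockout cells. *Nod2* was higher outside the fibroblasts, at 169 CPM and 179 CPM.

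**Figure D2:**
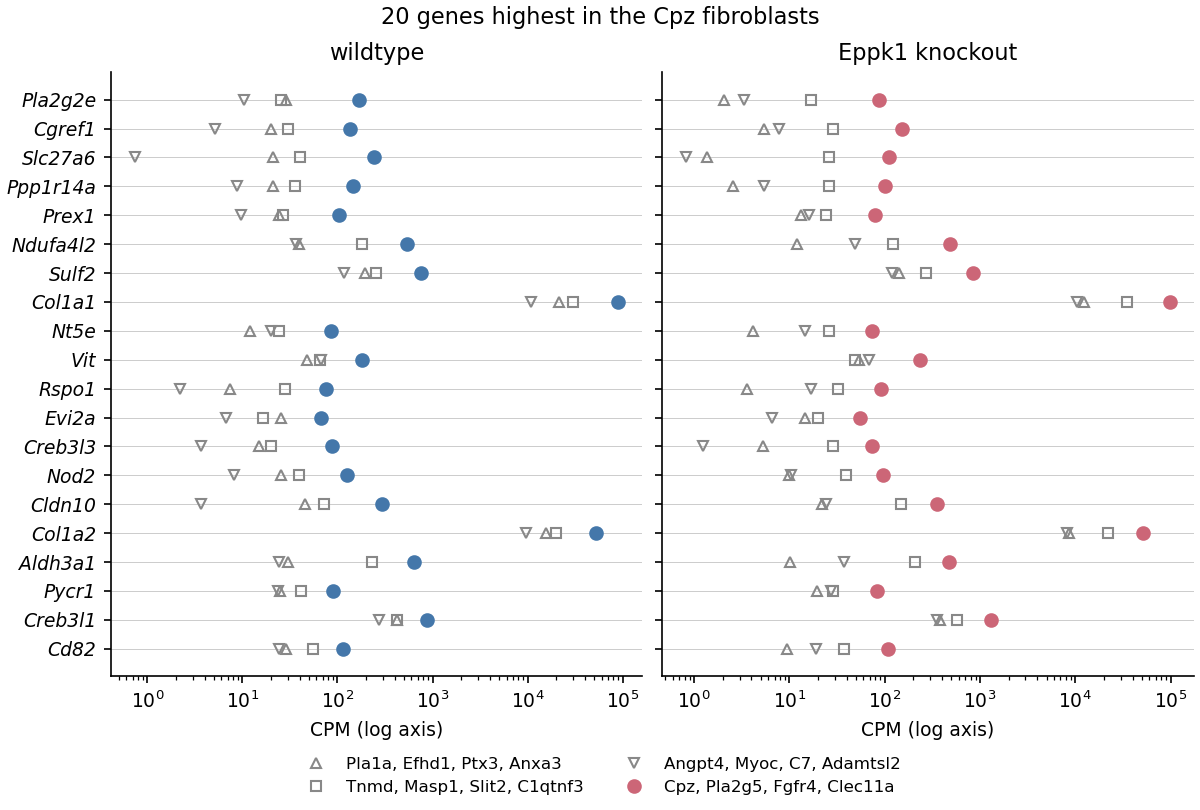
Levels (CPM, log axis) of the 20 genes that were highest in *Cpz* fibroblasts (filled points) against 3 other groups of fibroblasts (open symbols), in the wildtype and the *Eppk1* knockout library. The points of the *Cpz* fibroblasts stand to the right of those of all other groups for every gene, for example *Sulf2* at 754 CPM against at most 256 CPM in the wildtype.

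Genes that were lowest in *Cpz* fibroblasts included several of the matrix. *Postn*, which encodes periostin, stood at 44.7 CPM and 115 CPM, against at least 581 and 760 CPM in the other groups. *Prss23*, a serine protease, stood at 47.1 CPM and 123 CPM, against at least 462 and 677 CPM. *Dpt*, which encodes dermatopontin, a protein that binds decorin, stood at 1151 CPM and 2171 CPM, against at least 3977 and 5630 CPM. *Col14a1*, a collagen that decorates fibrils, stood at 11.6 CPM and 55.6 CPM, against at least 183 and 250 CPM. The *Cpz* fibroblasts thus combined the most *Col1a1* with the least *Postn*, *Dpt* and *Col14a1* of the 4 groups. *Dpt* and *Col14a1* are members of the gene lists and not of the 10 lowest genes. Those were *Postn*, *Prss23*, *Gfra1*, *Mustn1*, *Galnt15*, *Nox4*, *Adam23*, *Tek*, *Gngt2* and *Pamr1*, the last 8 with at most 20.7 CPM in wildtype and 26.9 CPM in knockout cells.

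Lists of genes with a known role were counted in the same way. Over all 4674 genes, 0.578% were higher and 2.05% lower. Over the same genes, the log2 ratio of *Cpz* fibroblasts over the highest other group had a median of -0.39 in wildtype and -0.52 in knockout cells. Of 6 fibrillar collagens, 2 were higher (*Col1a1* and *Col1a2*) and 0 lower, with medians of 0.48 and 0.52. Of 30 collagen processing enzymes, 1 was higher (*Creb3l1*) and 1 lower (*Plod2*, a lysyl hydroxylase), with medians of -0.06 and 0.07. Of 30 genes of the secretory pathway and of stress of the endoplasmic reticulum, 0 were higher and 0 lower, with medians of -0.21 and -0.40. *Col1a1*, *Col1a2* and *Col3a1* belong to the 4 genes whose share the rule used, so that the count of the fibrillar collagens is a description. Differences between the lists were not tested.

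In the remaining matrix lists the counts were as follows, beside 0.578% higher and 2.05% lower over all 4674 genes. Of 2 FACIT and related collagens, 1 was lower (*Col14a1*). Of 8 beaded and network collagens, 2 were lower (*Col6a3* and *Col6a6*), and of 9 leucine-rich proteoglycans, 2 were (*Ogn* and *Omd*). Summed over all genes of the list, these proteoglycans stood at 26370 CPM and 32743 CPM in *Cpz* fibroblasts, against at most 25246 and 25748 CPM in the other groups, and *Dcn*, one of them, is part of the rule. Of 32 other matrix glycoproteins, 5 were lower (*Postn*, *Dpt*, *Nid2*, *Lama2* and *Ccn3*), with medians of -1.46 and -1.50. Of 27 matrix proteases and inhibitors, 4 were lower (*Adam19*, *Fap*, *Plat* and *Prss23*), with medians of -0.70 and -0.59. Of 17 elastic fibre genes, 0 were higher and 0 lower, with medians of -1.04 and -0.67. No gene of these lists was higher in *Cpz* fibroblasts by the measure used.

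Lists of signalling genes contained the defining genes, which count there by choice. Over all 4674 genes, 0.578% were higher and 2.05% lower. Of 14 Wnt ligands and receptors, 2 were higher (*Cpz* and *Rspo1*) and 1 lower (*Fzd4*, a Frizzled receptor), and of 4 Wnt inhibitors, 1 was lower (*Sfrp1*). Of 11 genes of the FGF pathway, 1 was higher, *Fgfr4* itself. Of 12 phospholipases A2 and prostanoid enzymes, 2 were higher (*Pla2g5* and *Pla2g2e*) and 1 lower (*Ptgis*, the prostacyclin synthase). Of 5 osteogenic and chondrogenic genes, 2 were higher (*Clec11a* and *Creb3l1*) and 1 lower (*Itga11*, a collagen receptor). *Grem1*, a secreted BMP antagonist named here after its values were seen, stood at 152 CPM and 99.4 CPM, against at most 17.1 and 7.94 CPM in the other groups, but was detected in too few knockout members (22.8%) to be counted. The 29 genes of the TGF-beta and BMP pathway that were counted held 0 higher and 0 lower genes. The IGF, PDGF, Wnt target, cytokine, complement, cholesterol, glucocorticoid, clock, dissociation, plakin and cell cycle lists also held 0 of either.

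Markers of dermal layers were counted too. The shares over all 4674 genes were again 0.578% higher and 2.05% lower, and the medians -0.39 in wildtype and -0.52 in knockout cells. Of 10 papillary dermis genes, 1 was higher (*Rspo1*) and 0 lower, with medians of -0.21 and -0.31. Of 14 genes of the reticular dermis and hypodermis, 1 was higher (*Col1a1*, part of the rule) and 3 lower (*Gpx3*, *Dpt* and *Ogn*). The medians of this list were -1.94 and -2.33. Differences between these lists were not tested. Of the fibroblast markers, *Lum* stood at 3222 CPM and 5972 CPM and *Pdgfra* at 287 CPM and 304 CPM in *Cpz* fibroblasts, against 78.2 and 73.6 CPM and 30.1 and 21.7 CPM outside the fibroblasts. *Fbln1* stood at 413 CPM and 672 CPM, against 39.6 and 37.0 CPM, and *Col6a1* at 505 CPM and 630 CPM, against 76.1 and 62.3 CPM. *Pdgfra* was lower than in each other group of fibroblasts, which held at least 515 and 374 CPM. Of 29 positional and dermal transcription factors, 1 was higher (*Creb3l1*) and 1 lower (*Zfhx4*), and of 8 contractile genes, 2 were lower (*Myl9* and *Cnn2*).

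UMIs of genes that mark other cell types were counted in the members. Summed over 16 keratinocyte genes, *Cpz* fibroblasts held 4237 CPM in wildtype and 4420 CPM in knockout cells, with *Krt10* the most abundant and no gene at 0. A single cell gave 1082 of 1776 wildtype and another 1586 of 2465 knockout *Krt10* UMIs. For 15 macrophage and dendritic cell genes the sums were 1306 CPM and 946 CPM, with *Cd74* the most abundant, and 79.0% and 76.3% of *Cd74* UMIs lay in 5 cells of each library. The 8 sebocyte genes summed to 842 CPM and 361 CPM, led by *Scd1*. The share of UMIs in 5 cells differed between genes. For *Scd1* it was 87.6% in wildtype and 41.9% in knockout members, for *Krt14* 45.4% and 42.7%, for *Krt5* 37.97% and 39.3%, and for Lor 46.1% and 10.9%.

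Sums of the other types were low. They were 42.2 and 43.1 CPM for endothelial genes (*Kdr* most abundant, 2 of 12 at 0), 23.2 and 48.0 CPM for mural genes (*Abcc9*, 2 of 8 at 0), 21.9 and 7.25 CPM for T and NK cell genes (*Trbc2*, 1 of 10 at 0) and 3.72 and 3.45 CPM for mast cell genes (*Cma1*, 2 of 7 at 0). They were 36.8 and 64.5 CPM for Schwann cell genes (*Scn7a*, 2 of 8 at 0), 48.0 and 78.7 CPM for melanocyte genes (*Mitf*, 2 of 6 at 0), 67.8 and 40.7 CPM for adipocyte genes (*Plin4*, 1 of 8 at 0) and 79.0 and 51.8 CPM for skeletal muscle genes (*Des*, 3 of 10 at 0). The 15 genes of the dermal papilla and sheath summed to 419 CPM and 424 CPM, led by *Fgf7*, with 4 at 0. No caller of doublets was run. In its place, 44 wildtype members (12.4%) and 42 knockout members (9.19%) with UMIs of other types were left out as an alternative. Across both libraries 1211 droplet barcodes were shared, since cells of both mice could enter the same droplet, and 40 wildtype and 65 knockout members lay in such droplets. Values without the members with UMIs of other types are given for *Eppk1*, *Scd1* and some of the gene lists.

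Between the genotypes, 3432 genes detected in no fewer than 25% of the *Cpz* fibroblasts of either library were compared by size. A gene could thus enter through only the library where it was higher. Of the 10 highest genes below, *Gpc3*, *Cxcl12*, *Islr*, *Dkk3* and *Prss23* reached 25% only in knockout members. Of the 10 lowest, *Flrt1*, *Eppk1*, *Akr1c14*, *Ackr4*, *Ikbkg*, *Tef* and *Fibin* did so only in wildtype members. The counts and rankings therefore describe and test nothing. Of the 3432 genes, 130 (3.79%) were higher in knockout cells by at least 0.5 on the log2 scale and 214 (6.24%) were lower. The median log2 ratio was -0.08. Of the genes past this size, 37.8% were therefore higher. With edgeR's TMM scaling, which sets the bulk of genes to the same level, 165 were higher and 136 lower, or 54.8% higher. Ratios near 0.5 or -0.5 thus depended on the scaling. The type I collagen genes did not pass this size, with log2 ratios of 0.12 for *Col1a1* and -0.04 for *Col1a2*.

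Some of the genes with the highest ratios in *Cpz* fibroblasts are secreted or bound to the cell surface. *Gpc3*, a glypican that modulates growth factors, stood at 40.5 CPM in wildtype and 181 CPM in knockout cells (log2 ratio 2.15, 1.84 to 2.48). The other groups held more of *Gpc3*, at least 431 and 557 CPM. *Cpxm1*, a secreted carboxypeptidase-like protein, stood at 122 CPM and 483 CPM (log2 ratio 1.98, 1.80 to 2.17), and after thinning it was detected in 25.9% and 71.5% of members, against 0.166% and 0.688% of keratinocytes. Of the 10 highest genes, *Cpxm1* was past 0.5 in all 3 other groups as well, at 0.79 in the *Pla1a*, 1.40 in the *Tnmd* and 0.60 in the *Angpt4* group. *Fndc1*, a fibronectin domain protein, stood at 93.4 CPM and 258 CPM (log2 ratio 1.46), and *Islr* at 28.1 CPM and 84.2 CPM (log2 ratio 1.58). Both were below each other group, which held at least 255 and 456 CPM of *Fndc1* and 145 and 195 CPM of *Islr*. *Cpxm1* stood at 206.8 to 437.5 CPM in the other groups of the wildtype and at 378.5 to 754.6 CPM in those of the knockout.

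Signalling molecules were among these genes too. *Cxcl12*, a chemokine, stood at 150 CPM in wildtype and 471 CPM in knockout cells (log2 ratio 1.65, 1.49 to 1.83). The other groups held more of *Cxcl12*, at least 1029 and 656 CPM. *Tgfb2*, a TGF-beta ligand, stood at 105 CPM and 266 CPM (log2 ratio 1.35, 1.14 to 1.56). *Dkk3*, a relative of the Dickkopf Wnt inhibitors, stood at 40.9 CPM and 118 CPM (log2 ratio 1.53), and *Angptl1* at 136 CPM and 358 CPM (log2 ratio 1.40). *C4b*, a complement component, stood at 280 CPM and 752 CPM (log2 ratio 1.43, 1.30 to 1.56), against at least 794 and 1102 CPM in the other groups. *Angptl1* was above each other group (at most 123 and 248 CPM). *Tgfb2* lay between the other groups in both libraries, and *Dkk3* was below them in the wildtype only. The part of overlap with the other groups in these ratios was not tested. *Prss23*, which was among the lowest genes of the group, completed the 10, with a log2 ratio of 1.38. These genes kept their direction under all alternatives, with *Cxcl12* between 0.82 and 1.88, *Gpc3* between 1.30 and 2.55 and *Tgfb2* between 1.26 and 2.09. *Prss23* ranged from 0.52, among members with at most 1 UMI in each other sum, to 1.92 after thinning.

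The lowest ratio in knockout *Cpz* fibroblasts belonged to *Tgm2*, which encodes transglutaminase 2, an enzyme that cross-links proteins. It stood at 390 CPM in the wildtype (366 to 416) and 62.1 CPM in knockout cells (53.4 to 71.9), a log2 ratio of -2.65 (-2.89 to -2.42). *Flrt1*, a membrane protein that can bind FGF receptors, stood at 117 CPM and 21.4 CPM (log2 ratio -2.45, -2.88 to -2.06), and *Ackr4*, a scavenging chemokine receptor, at 116 CPM and 34.2 CPM (log2 ratio -1.76). *Gas6*, a secreted ligand of the receptors *Tyro3*, *Axl* and *Mertk*, stood at 6558 CPM in the wildtype (6457 to 6661) and 2236 CPM in knockout cells (2182 to 2291), a log2 ratio of -1.55. Of the 10 lowest genes, 5 were past -0.5 in the other groups as well, namely *Eppk1*, *Tgm2* (-2.91 in the *Pla1a* and -0.97 in the *Angpt4* group, and at 151 and 37.6 CPM in the *Tnmd* group), *Gas6* (-2.79 in the *Pla1a*, -0.79 in the *Tnmd* and -0.92 in the *Angpt4* group), *Akr1c14* (-0.57, -1.36 and -0.54) and *Fibin* (-1.36, -1.66 and -0.55).

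*Akr1c14*, an enzyme of steroid metabolism from a family of similar genes, stood at 213 CPM and 61.4 CPM (log2 ratio -1.79). *Ikbkg*, a subunit of the kinase that activates NF-kappa B, stood at 117 CPM and 34.5 CPM (log2 ratio -1.76). *Tef*, a clock-controlled transcription factor, stood at 62.0 CPM and 21.4 CPM (log2 ratio -1.53), and *Fibin* at 82.3 CPM and 30.7 CPM (log2 ratio -1.42). All of these lay below -0.5 in every alternative. *Scd1*, a fatty acid desaturase abundant in sebocytes, did not. It stood at 482 CPM and 98.0 CPM (log2 ratio -2.29), but 1 wildtype cell held 872 of its 1165 UMIs, and without cells with UMIs of other types the ratio was -0.21.

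**Figure D3:**
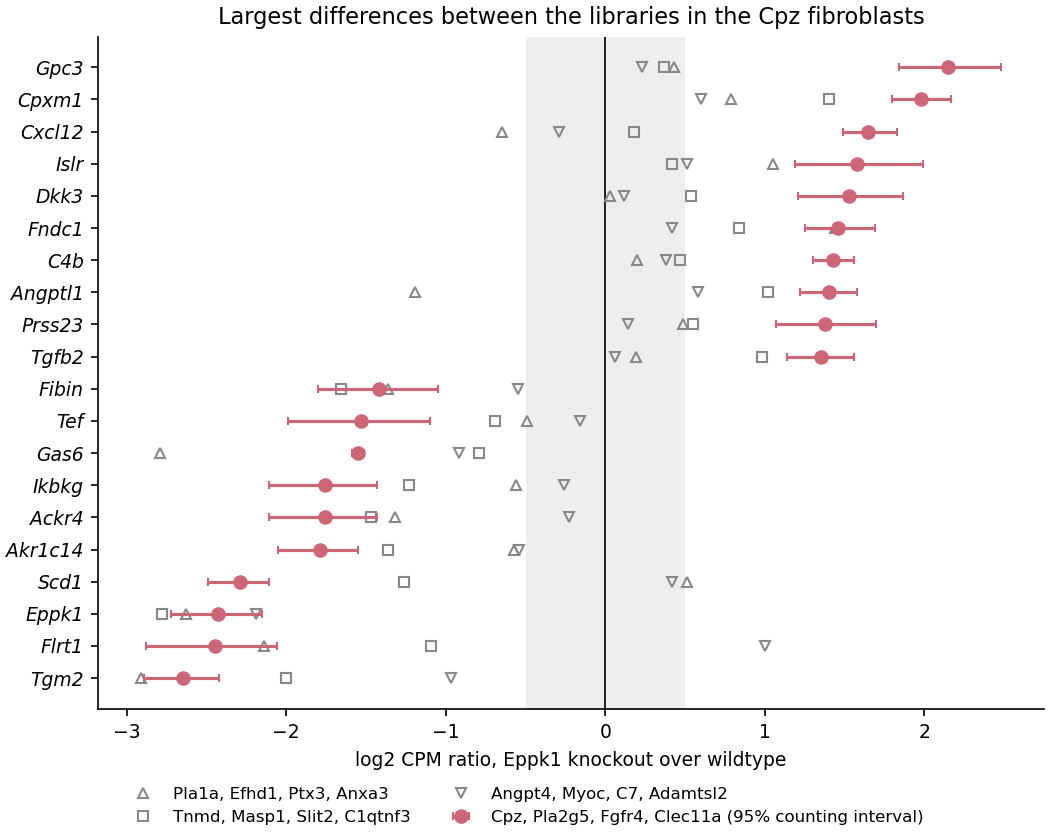
Log2 ratio of CPM, *Eppk1* knockout over wildtype (x axis), for the genes with the 10 highest and the 10 lowest ratios in *Cpz* fibroblasts. Filled points with 95% counting intervals are the *Cpz* fibroblasts, open symbols the other 3 groups of fibroblasts, and the grey band spans -0.5 to 0.5. *Cpxm1* is above the band in all 4 groups, and *Tgm2*, *Eppk1*, *Akr1c14*, *Gas6* and *Fibin* are below it in all 4, while *Cxcl12* is at 1.65 in *Cpz* fibroblasts and at -0.65 in the *Pla1a* group.

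The values given for the other fibroblasts stand side by side with those of *Cpz* fibroblasts, because the groups do not share cells but come from the same mice. Differences between the groups in these ratios were not tested. The *Pla1a* group itself differed between the libraries. The 75th percentile of its collagen and decorin share was 9.24% in wildtype and 4.36% in knockout cells. There the log2 ratios were -1.37 for *Cpz*, -3.77 for *Pla2g5*, -1.88 for *Fgfr4* and -0.84 for *Clec11a*. The part of this difference in the other ratios of the group was not tested.

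Lists of genes were read against the share of all genes, 3.79% higher and 6.24% lower, and against the median of -0.08. They are given with the numbers of genes detected in 25% of the members of either library. Of 7 complement genes, 4 were higher and 0 lower, with a median log2 ratio of 0.54. *C3*, the central component, stood at 1569 CPM in wildtype and 3018 CPM in knockout cells, *C1s1* at 311 CPM and 606 CPM, and *C1ra* at 609 CPM and 888 CPM. *C1ra*, *C1s1* and *C4b* each have a close copy in the mouse genome, and how the probes divide the copies is not given in the sources used here. The counts of this list were the same with TMM scaling and without cells with UMIs of other types.

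Most of the genes past the size in the matrix lists were higher. Of 26 other matrix glycoproteins, 9 were higher and 1 lower, with a median of 0.35. *Dpt* stood at 1151 CPM and 2171 CPM, *Fn1* (fibronectin) at 1760 CPM and 2829 CPM and *Tnxb* (tenascin X) at 745 CPM and 1149 CPM, whereas *Thbs2* (thrombospondin 2) was lower, at 2720 CPM and 1384 CPM. Of 17 elastic fibre genes, 5 were higher (*Adamtsl4*, *Emilin1*, *Fbln1*, *Mfap2* and *Mfap4*) and 1 lower (*Adamts10*), with a median of 0.40. With TMM scaling 7 were higher and 0 lower. Of 8 leucine-rich proteoglycans, 2 were higher (*Lum*, at 3222 CPM and 5972 CPM, and *Podn*) and 1 lower (*Aspn*). Of 7 beaded and network collagens, 1 was higher (*Col6a3*) and 0 lower, with all 7 ratios above 0 and a median of 0.32. With TMM scaling 2 were higher. The 6 fibrillar collagens held 0 higher and 1 lower gene (*Col5a3*, at -0.51), with a median of -0.06, and 0 of either with TMM scaling or without members with UMIs of other types. The 1 detected gene of the FACIT and related collagens, *Col16a1*, was at 0.13.

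Enzymes that process and break down the matrix differed in both directions. Of 28 collagen processing enzymes, 3 were higher (*Pcolce*, *Creb3l1* and *P3h3*) and 2 lower (*Adamts2* and *Lox*), with a median of 0.11. With TMM scaling 4 were higher and 1 lower. *Pcolce*, which enhances the removal of the carboxy-terminal propeptide of procollagen, stood at 1082 CPM and 1777 CPM, and *Adamts2*, which removes the amino-terminal propeptide, at 2267 CPM and 1448 CPM. *Sparc*, a collagen-binding protein, stood at 12822 CPM and 16212 CPM (log2 ratio 0.34). Of 21 matrix proteases and inhibitors, 5 were higher and 2 lower, with a median of 0.12. Among these, *Ctsk*, a protease that cleaves collagen, was higher (976 CPM and 1973 CPM), and *Timp3*, an inhibitor of metalloproteinases, was lower (1194 CPM and 676 CPM). Of 29 secretory pathway and stress genes, 3 were higher (*Creld2*, *Pdia6* and *Manf*) and 0 lower, with a median of 0.10.

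**Figure D4:**
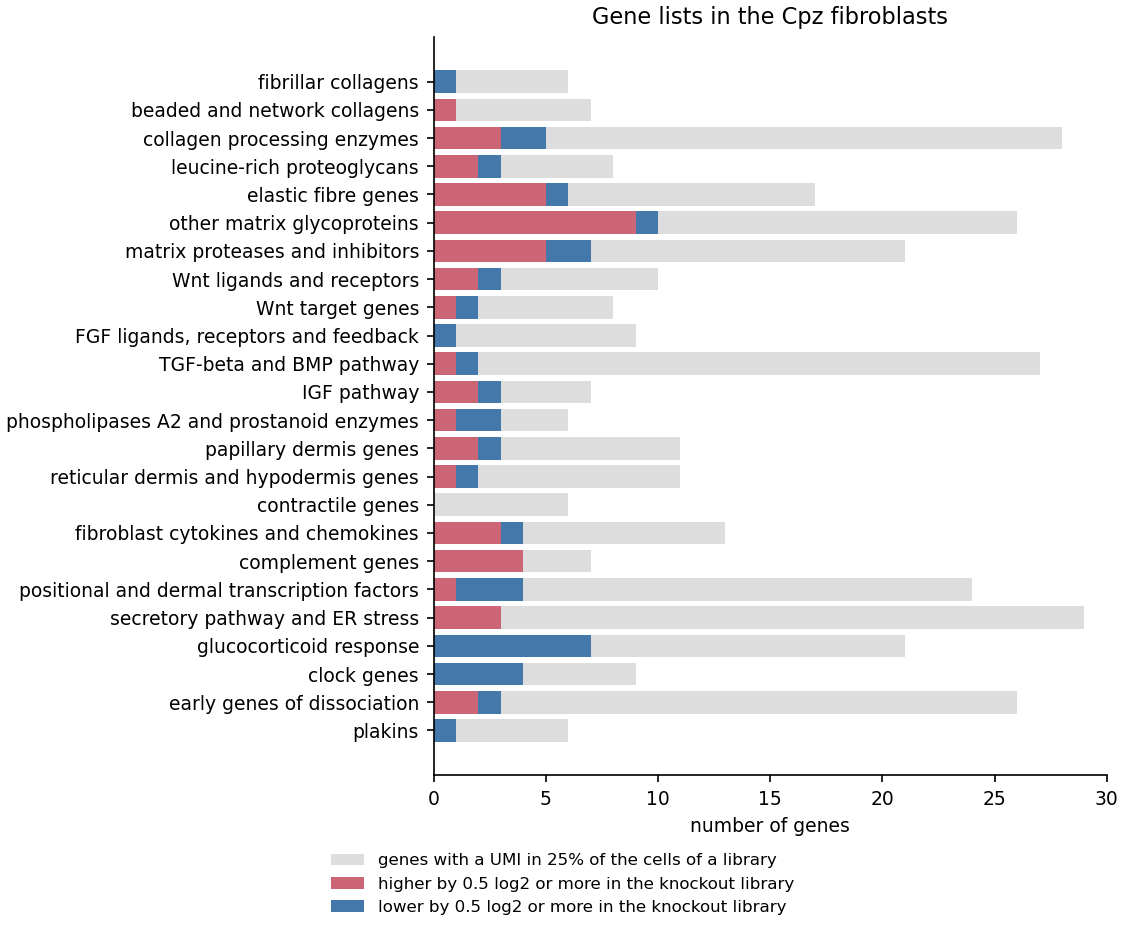
Number of genes (x axis) in each list with at least 6 detected genes in *Cpz* fibroblasts. Grey bars are the detected genes, and the red and blue parts are the genes that were higher or lower in the *Eppk1* knockout library by at least 0.5 on the log2 scale. The complement genes have 4 of 7 higher, the glucocorticoid response 7 of 21 lower and the clock genes 4 of 9 lower.

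Signalling lists held genes in both directions. Of 10 Wnt ligands and receptors, 2 were higher (*Cpz* and *Lrp5*) and 1 lower (*Ror2*, at 88.1 CPM and 43.1 CPM). *Dkk3* was higher among 2 Wnt inhibitors, and of 8 Wnt target genes 1 was higher (*Nkd1*) and 1 lower (*Twist2*). Of 9 genes of the FGF pathway, 0 were higher and 1 lower (*Spry2*, a feedback inhibitor), with a median of -0.30. Of 27 genes of the TGF-beta and BMP pathway, 1 was higher (*Tgfb2*) and 1 lower (*Grem1*), and the median of -0.08 was that of all genes. Of 7 genes of the IGF pathway, 2 were higher, namely the binding proteins *Igfbp3* (527 CPM and 1041 CPM) and *Igfbp5* (3196 CPM and 5356 CPM), and 1 was lower (*Igfbp6*).

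Of 3 genes of the PDGF pathway, 1 was higher (*Pdgfrl*). Of 6 phospholipases A2 and prostanoid enzymes, 1 was higher (*Hpgd*) and 2 lower (*Pla2g5* and *Pla2g2e*), and of 3 osteogenic and chondrogenic genes, 2 were higher (*Clec11a* and *Creb3l1*). Of 13 cytokines and chemokines, 3 were higher (*Cxcl12*, *Ccl8* and *Il1r1*) and 1 lower (*Ackr4*). Of 24 positional and dermal transcription factors, 1 was higher (*Creb3l1*) and 3 lower (*Ebf1*, at 185 CPM and 82.2 CPM, *Snai2* and *Twist2*), with a median of -0.18. Of 11 papillary dermis genes, 2 were higher (*Nkd1* and *Sparcl1*) and 1 lower (*Ackr4*), and of 11 reticular dermis and hypodermis genes, 1 was higher (*Dpt*) and 1 lower (*Anxa3*). *Cpz*, *Pla2g5*, *Clec11a* and *Anxa3* were part of the rule that chose the cells. The 6 contractile genes held 0 of either, and the only detected cell cycle gene, *Pcna*, was at 0.12. Several of these small counts moved with the processing. Without members with UMIs of other types, 3 genes of the FGF pathway, 3 of the TGF-beta and BMP pathway, 5 transcription factors and 2 genes of the reticular dermis and hypodermis were lower, and 1 Wnt ligand or receptor was higher. With TMM scaling, 5 cytokines and chemokines, 2 genes of the TGF-beta and BMP pathway and 3 of the papillary dermis were higher, 2 transcription factors were lower, and 0 Wnt target genes and 0 genes of the IGF pathway were.

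Of 21 glucocorticoid response genes, 0 were higher and 7 lower, with a median of -0.21. These were *Tsc22d3* (675 CPM and 349 CPM), *Errfi1*, *Cry2*, *Fkbp5*, *Glul*, *Zbtb16* and *Cebpd*. With TMM scaling 6 were lower. Of 9 clock genes, 0 were higher and 4 lower, namely *Tef*, *Nr1d1* (482 CPM and 258 CPM), *Nr1d2* and *Cry2*. Their median was -0.10, beside -0.08 for all genes, and 4 of the 9 ratios were above 0. *Cry2* counts in both lists. Glucocorticoid and clock lists had been examined in earlier results of these data, so that these counts are not independent support for them. The 3 detected cholesterol synthesis genes lay at -0.43 to -0.29 and none passed the size. Among 6 plakins, 1 was lower, *Eppk1* itself, and all 6 ratios were below 0, with a median of -0.20. Of 26 early genes of dissociation, 2 were higher (*Fos*, at 0.81, and *Egr1*, at 0.55) and 1 lower (*Hspb1*, which did not pass the size with TMM scaling or without members with UMIs of other types), with a median of 0.02. The part of the dissociation genes in the other values was not tested.

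The *Cpz* fibroblasts were not uniform. Split by their share of collagen and decorin UMIs, 264 wildtype and 324 knockout members had at least 15%, and 90 and 133 had less. The split was made after the data were seen, and the collagen share is part of the rule. *Cpz* stood at 903 CPM in the collagen-richer and 490 CPM in the collagen-poorer wildtype members, and at 1363 and 640 CPM in knockout members. *Sparc* stood at 15757 and 5554 CPM in wildtype and at 21091 and 5223 CPM in knockout cells. *Creb3l1* stood at 994 and 596 CPM in wildtype and at 1543 and 741 CPM in knockout cells. These 3 genes were thus higher where collagen was higher.

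*Cxcl12*, *C4b* and *Gpc3* had the opposite order. In members as a whole, each of these genes stood below all other groups of fibroblasts in both libraries, and those groups had lower collagen shares. *Cxcl12* stood at 77.8 CPM in collagen-richer and 328 CPM in collagen-poorer wildtype members, and at 138 and 1223 CPM in knockout members. *C4b* stood at 156 and 586 CPM in wildtype and at 323 and 1719 CPM in knockout cells. *Gpc3* stood at 30.8 and 64.7 CPM in wildtype and at 76.3 and 415 CPM in knockout cells. Their log2 ratios of knockout over wildtype were 1.90 in collagen-poorer and 0.82 in collagen-richer members for *Cxcl12*, 1.55 and 1.05 for *C4b*, and 2.67 and 1.30 for *Gpc3*. Genes of other cell types moved with this split. *Eppk1* stood at 74.9 and 655 CPM in collagen-richer and collagen-poorer wildtype members and at 18.4 and 104 CPM in knockout members. *Scd1* stood at 69.7 and 1502 CPM in wildtype, where 1 cell held 872 of the 1045 UMIs of collagen-poorer members. In knockout cells *Scd1* stood at 49.3 and 208 CPM. The part of genes of other cell types, or of the other fibroblast groups, in the values of the split was not tested. Neither was the difference between the ratios. *Cpxm1* was similar in both, at 2.11 and 1.91.

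Genes that were lower in knockout cells did not share 1 order across the split. In the wildtype *Tgm2* stood at 488 CPM in collagen-richer and 148 CPM in collagen-poorer members, and in knockout cells at 67.3 and 50.5 CPM, or log2 ratios of -2.85 and -1.54. *Gas6* stood at 7303 and 4716 CPM in wildtype and at 2200 and 2318 CPM in knockout cells, or log2 ratios of -1.73 and -1.02. *Flrt1* had log2 ratios of -2.36 in collagen-richer and -2.87 in collagen-poorer members, and *Eppk1* of -2.01 and -2.64. *Scd1* had -0.50 and -2.85, and 1 cell held 872 of its 1045 UMIs in collagen-poorer wildtype members. These differences between ratios were not tested.

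**Figure D5:**
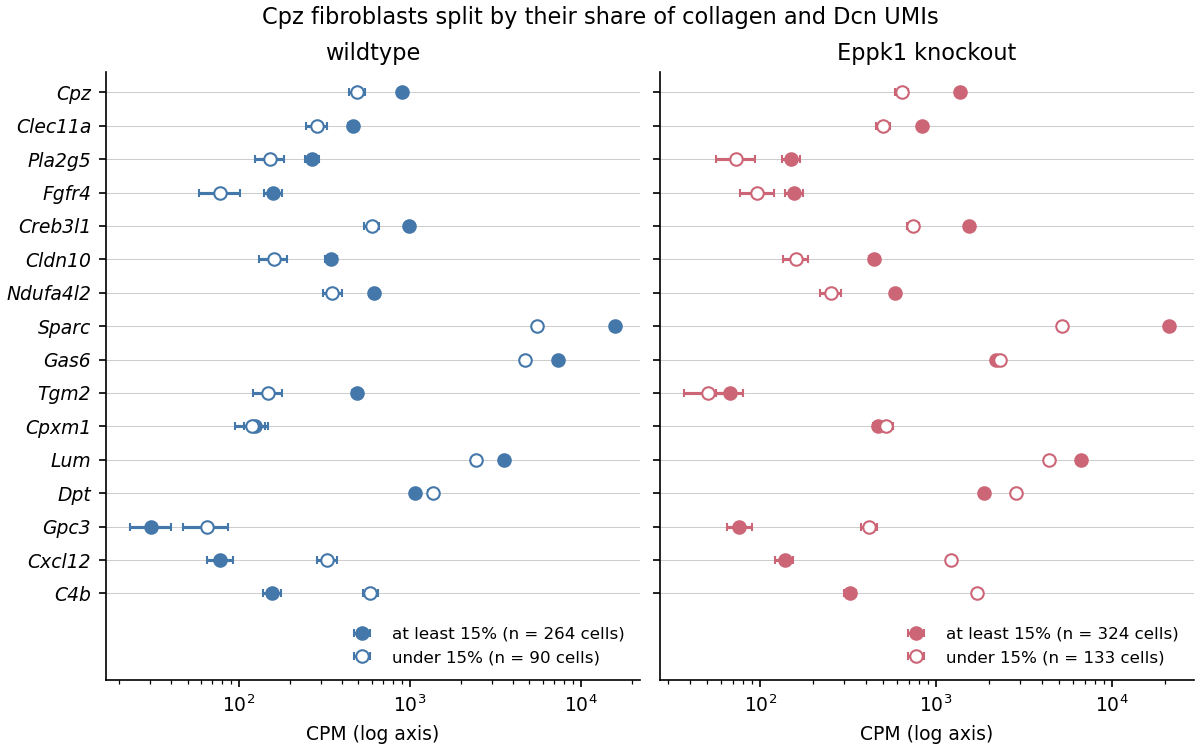
Levels (CPM, log axis) of 16 genes in *Cpz* fibroblasts with at least 15% (filled points) and under 15% (open points) of UMIs from *Col1a1*, *Col1a2*, *Col3a1* and *Dcn*, in the wildtype (264 and 90 cells) and the *Eppk1* knockout library (324 and 133 cells), with 95% counting intervals. *Cpz*, *Creb3l1* and *Sparc* are higher in the filled points and *Cxcl12*, *C4b* and *Gpc3* in the open points of both libraries.

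The overlap with the *Tnmd* group was described in the same way. Among members with a *Tnmd* sum of at least 3 (103 wildtype and 205 knockout cells), *Cpz* stood at 796 CPM in wildtype and 1190 CPM in knockout cells, and among those with a lower sum (251 and 252 cells) at 778 and 1087 CPM. *Sparc* stood at 15018 and 18875 CPM with the higher and 11660 and 13279 CPM with the lower *Tnmd* sum. *Cxcl12* stood at 191 and 273 CPM with the higher and at 128 and 690 CPM with the lower sum, so that its log2 ratio between the libraries was 0.51 and 2.43. The difference between these ratios was not tested, and the *Tnmd* sum is part of the rule. *Gas6* was lower in knockout cells in both, at -1.43 and -1.60.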

How the data were processed

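Single-cell profiles came from dorsal skin of 1 wildtype and 1 knockout mouse (10x Fixed RNA Profiling). The deposited values are UMI counts per gene and cell, which the authors made with Cell Ranger 8.0.1 on mm10. They list 19059 genes, and all columns belong to a sample. UMIs were summed over the cells of a group and library, divided by the total without the 13 mitochondrial genes and multiplied to CPM, and log2 ratios were taken. Members and gene lists (30 for this tissue and 12 for other cell types) were chosen with earlier results of these data known. Gene lists were counted without a test, since there is 1 library per genotype. The named genes are the 4 defining genes, *Eppk1*, the 20 highest and 10 lowest in *Cpz* fibroblasts against the other groups by the smaller difference of both libraries, the 10 highest and 10 lowest of knockout over wildtype, and, beside these, members of the gene lists past 0.5 or described with their list. Thinning drew UMIs without replacement. Members with UMIs of other cell types were those with at least 1% keratinocyte UMIs, or with at least 3 UMIs and 0.2% of UMIs from another list of cell types, dermal papilla and sheath apart. Promoters and positions are from RefSeq and GENCODE on GRCm38. Promoter windows were looked up for the named genes apart from list members and for the genes of the other sums, *Col3a1* and *Dcn*, and 48 of these 67 had one. Ratios and calls were run on simulated Poisson counts of summed UMIs. These hold no spread between cells or mice, so they check the calculation only. Python 3.11.15, numpy 2.4.6, pandas 2.3.3, scipy 1.17.1, matplotlib 3.10.9, R 4.3.3 and edgeR 4.0.16 (TMM factors only) were used.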

Additional observations from a re-analysis of the deposited data

Results flagged for a closer look

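*Cxcl12* was higher in knockout *Cpz* fibroblasts, at a log2 ratio of 1.65, and lower in the *Pla1a* group, at -0.65. *Angptl1* was higher in knockout *Cpz* fibroblasts, at 1.40, and lower in the *Pla1a* group, at -1.19. *Scd1* had the opposite pattern, at -2.29 in *Cpz* fibroblasts, where 1 wildtype cell held 872 of 1165 UMIs, and at 0.51 in the *Pla1a* group. They are listed because the ratios of both groups of cells passed 0.5 in opposite directions, and the difference between the groups was not tested. In the *Pla1a* group *Cpz* and *Col1a1* were also lower in knockout cells, at -1.37 and -0.82. The part of such differences within that group was not tested.

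Cells below the fibroblast threshold belong to none of the fibroblast groups and served only for levels and detection outside the fibroblasts. Among them, 22 of 7252 wildtype and 28 of 5970 knockout cells held at least 3 UMIs of *Cpz*, *Pla2g5*, *Fgfr4* and *Clec11a*. Their median depths were 10537 and 8669 UMIs, and 13 and 10 of them had at least 1% of UMIs from *Col1a1*, *Col1a2*, *Col3a1* and *Dcn*.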

How the results depend on the processing

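Of 53 named genes with 689 values under the alternatives, 604 stayed within the interval of the main value, 83 moved further, and 2 that passed the size of 0.5 changed sign, namely *Scd1*, at 0.56 among members with at most 1 UMI in each other sum, and *Adam23*, at -0.04 among members with at least 15% collagen and decorin UMIs. Ratios near 0 also crossed it, such as that of *Fgfr4* (0.03, range -0.22 to 0.12). The main counts were 130 higher and 214 lower genes. With a UMI required in 10% of members they were 341 and 606, and with at least 50 UMIs in place of a share of cells 536 and 924, with 6802 and 8457 genes compared. Among members with at most 1 UMI in each other sum they were 239 and 361. Of these genes, 88 and 112 were shared with the main counts, and 18 called genes had the other sign. With cells thinned to 3000 UMIs, 1606 genes were compared and 91 were higher and 135 lower, 64 and 81 of them shared with the main counts, and 4 called genes had the other sign. Lower genes numbered 136 with TMM scaling and 323 among members with at least 15%. The share of *Cpz* fibroblasts among wildtype and knockout fibroblasts was 18.98% and 15.7% with a sum of at least 5, 33.9% and 35.7% with a fibroblast threshold of 5%, 7.21% and 4.68% with at most 1 UMI in each other sum, and 16.3% and 12.2% with at least 15%. After thinning it was 18.97% in the wildtype. The causes were not tested. The 20 highest genes of *Cpz* fibroblasts stayed above all other groups in both libraries under all 9 alternative choices of cells, and by at least 1 on the log2 scale in 13 to 20 of them. The 2 limits on members and the total without collagens were chosen after seeing the data. No paired analysis was possible because there is 1 library per genotype, and for the same reason no library could be left out. Depth limits the genes with few UMIs: *Gfra1* had 2 UMIs in the *Cpz* fibroblasts of each library.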
